A study of Mus musculus with 37 samples.

Results

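The intestinal stem cell markers described here are 9 genes chosen by their symbols: Lgr5, Olfm4, Ascl2, Smoc2, Rgmb, Tnfrsf19, Sox9, Prom1 and Cd44. All 9 were found among the 31533 genes of the 3 count tables, of which 19200 genes were shared by all tables. RNA had been sequenced from cultured murine jejunal organoids in 3 experiments that tested vasoactive intestinal peptide (VIP), a neuropeptide of the gut that acts on the epithelium through G protein-coupled receptors. Whole organoids came from C57Bl6/J mice, with 3 untreated and 4 VIP-treated cultures, and VIP was given at 100 nM for 72 h. Lgr5-EGFP+ cells were sorted from organoids of Lgr5-EGFP-IRES-CreERT2 mice, with 4 untreated and 4 VIP-treated cultures at the same dose and time. In the irradiation experiment, Lgr5-EGFP+ cells of the same reporter strain were sorted from 4 groups of 4 cultures each: without VIP or irradiation, with VIP alone, after 6 Gy of X-rays, and after 6 Gy followed by VIP, with VIP given for 48 h. The donors were male and female mice aged 6 to 12 weeks, and all cultures grew in Matrigel with EGF, Noggin and R-spondin 1.

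Intestinal stem cells sit at the base of the crypt between Paneth cells and renew the epithelium. They depend on Wnt and R-spondin signals from their niche and on Notch signals from their neighbours, and they are restrained by BMP signals. Lgr5 encodes a receptor for R-spondins and is the defining marker of cycling crypt base stem cells. Olfm4 encodes a secreted glycoprotein that is induced by Notch signalling, Ascl2 a Wnt-responsive transcription factor that maintains stem cell identity, and Smoc2 a secreted matricellular protein. Rgmb is a co-receptor for BMPs, and Tnfrsf19 (Troy) is a Wnt-induced receptor of the TNF receptor family. Sox9 is a transcription factor of crypt progenitors, Paneth cells and some enteroendocrine cells. Prom1 (CD133) and Cd44 are surface glycoproteins that are found on stem cells and on other cells of the crypt. The reporter allele places EGFP in the Lgr5 locus and disrupts that copy of the gene, and it is known to be silenced in some crypts. The gate used for the sort is not given in the sources used here.

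The summed unique molecular identifier (UMI) counts were 3722716 to 6330404 per culture of whole organoids, 575242 to 1104126 per culture of sorted cells treated for 72 h, and 1075715 to 1876729 in the irradiation experiment. Levels are given as CPM, UMI counts scaled to library size with TMM factors over all 31 cultures, and since only the 3′ ends of transcripts were counted, they compare 1 gene between cultures. In bulk samples, fewer cells of a type and less RNA per cell cannot be told apart. In whole organoids, the library labelled as the second of VIP-treated mouse 3 stood apart. Its correlation with its sister library was 0.915, against 0.981 to 0.992 for the other 5 pairs and 0.978 to 0.985 with the libraries of untreated mice 1 and 2. The library correlated at 0.941 with untreated mouse 3 and at 0.956 to 0.978 with the VIP libraries of mice 1, 2 and 4. Its level of Clca1, a goblet cell gene, was 52.3 CPM, against 40.2 to 60.9 CPM in the untreated libraries and 324.9 CPM in its sister library, so its VIP label may be wrong. Its Xist level was 754.5 CPM, against 265.7 to 647.1 CPM in the other libraries of mice 3 and 4 and 8.40 to 16.5 CPM in those of mice 1 and 2. Whether its mouse label is right was not tested. In the irradiation experiment the libraries of all 4 mice held both Xist and the Y-linked Eif2s3y. Xist was at 267.6 to 455.4 CPM with Eif2s3y at 24.8 to 48.8 CPM in mouse 1, and at 24.4 to 59.1 CPM with Eif2s3y at 62.4 to 103.6 CPM in mice 2 to 4. Whether these libraries hold reads of more than 1 mouse was not tested. The main results include the library that stood apart. Results without it, or without single mice, are given beside some of them.

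The sorted cells held fewer enterocyte transcripts than whole organoids and also held Paneth cell transcripts. All 12 enterocyte markers passed the test as lower in both sets of untreated sorted cells than in whole organoids. Of all genes, 32.5% passed in either direction in the 72 h experiment and 58.1% in the irradiation experiment. The enterocyte markers summed to 1308 to 3182 CPM in the untreated sorted cells of the 72 h experiment. Their sum in untreated whole organoids was 15739 to 16860 CPM. All 6 general epithelial markers were detected in every group. Paneth cell markers were counted after the sort as well, with sums of 5768 to 18136 CPM in the untreated cells of the 72 h experiment and 10314 to 15426 CPM in those of the irradiation experiment. The 9 stem cell markers themselves summed to 2037 to 4448 CPM in untreated whole organoids, 4690 to 6603 CPM in untreated sorted cells of the 72 h experiment and 3536 to 4615 CPM in untreated, non-irradiated cells of the irradiation experiment. Most of each sum came from Olfm4.

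**Figure D1:**
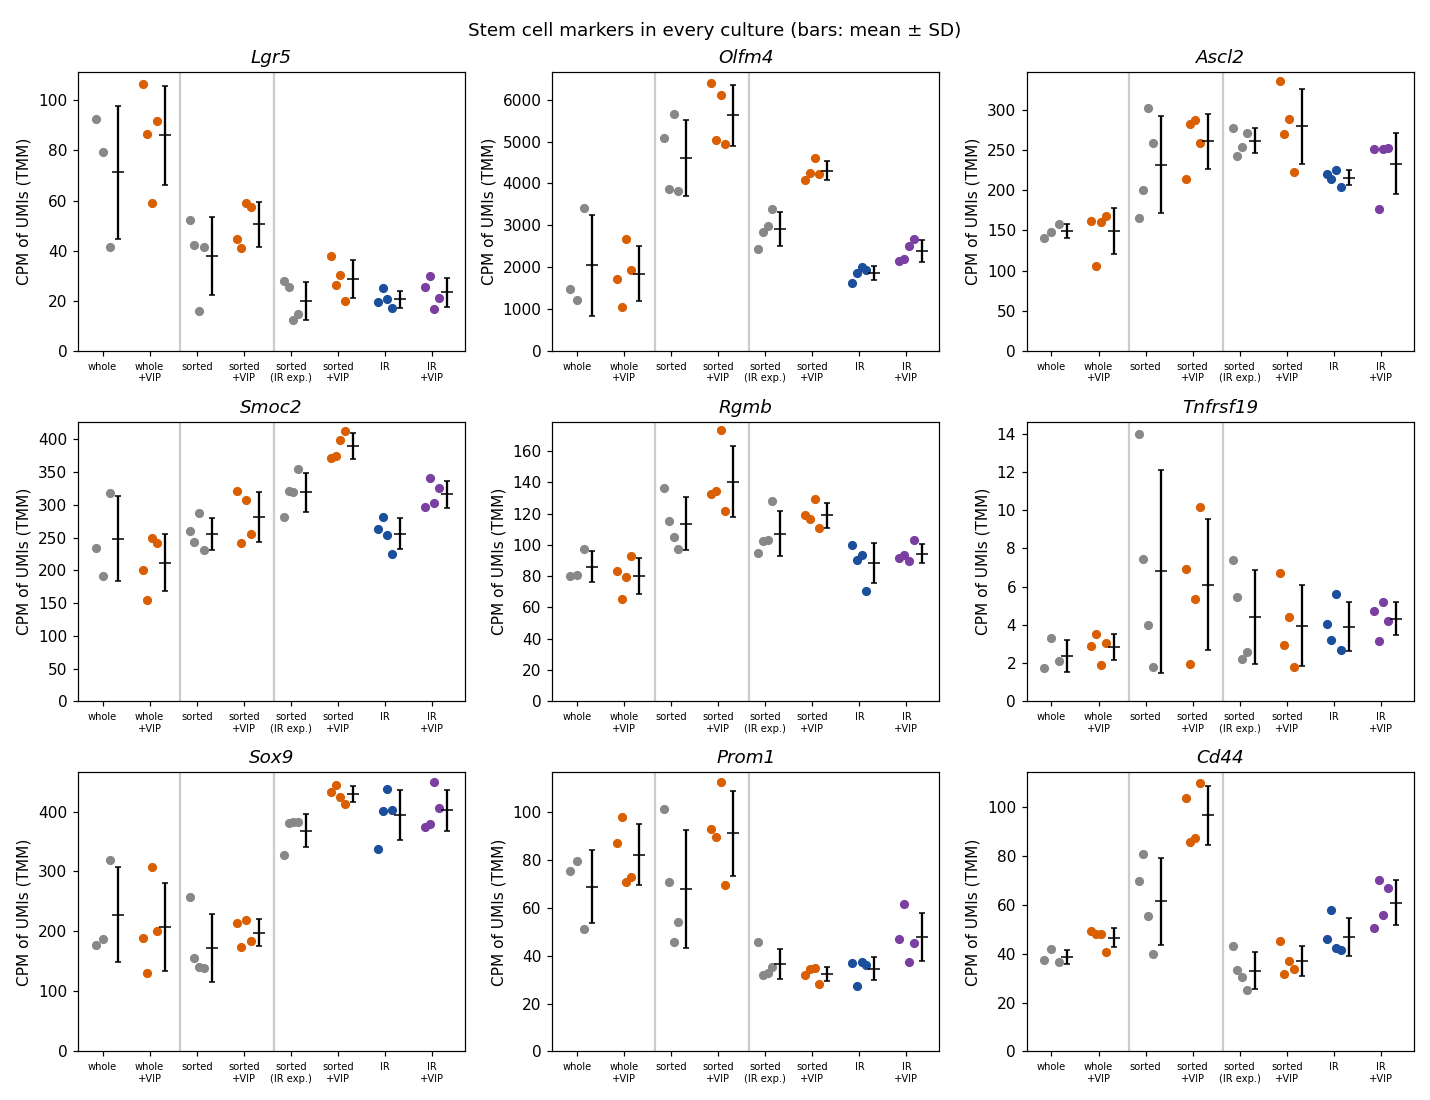
CPM of UMIs after TMM scaling (y axis, from 0) for the 9 stem cell markers in every culture, by group (x axis), with grey lines between the 3 experiments. Points are cultures and the bars beside them are the mean ± SD (n = 3 or 4). In the irradiation experiment Olfm4 lay at 4090 to 4618 CPM with VIP alone and at 1633 to 2013 CPM after irradiation alone, and Lgr5 was at 12.2 to 27.8 CPM in untreated sorted cells of the irradiation experiment.

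VIP in non-irradiated sorted cells was followed by a higher level of Olfm4. The 4 cultures without VIP held 2430, 2843, 2985 and 3400 CPM of Olfm4, and the 4 VIP-treated cultures of the same mice held 4090, 4260, 4618 and 4229 CPM. The groups did not overlap, and the level was higher with VIP in 4 of 4 mice. How many of all genes have groups that do not overlap was not counted, here or in the comparisons below. The log2 fold change was 0.57 (SE 0.067), a 1.48-fold rise, with an adjusted p = 4.82e-05 (quasi-likelihood test of edgeR, adjusted over 9976 genes by the Benjamini-Hochberg method). Olfm4 was the only one of the 8 markers tested that passed, where 0.742% of all genes tested passed in this comparison.

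After irradiation, VIP was again followed by more Olfm4. The irradiated cultures without VIP held 1633, 1871, 2013 and 1934 CPM, and those with VIP held 2154, 2199, 2513 and 2686 CPM. The groups did not overlap, with a log2 fold change of 0.35 (SE 0.068, higher in 4 of 4 mice, adjusted p = 0.0176 by edgeR). The other 7 markers tested did not pass, and 0.221% of all genes did. This call was lost in 3 of 10 alternative fits. Without all cultures of mouse 3 the edgeR adjusted p of Olfm4 was 0.137, and without those of mouse 4 it was 0.264. Without the pairing by mouse it was 0.201 by edgeR. The log2 fold changes in these fits were 0.36, 0.32 and 0.35, near that of the main fit.

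Irradiation was followed by lower levels of Olfm4 and Smoc2. In cells without VIP, Olfm4 fell by 0.64 on the log2 scale (SE 0.068, lower in 4 of 4 mice, adjusted p = 1.96e-06 by edgeR), to between 1633 and 2013 CPM. In VIP-treated cells it fell by 0.86 (SE 0.068, lower in 4 of 4 mice, adjusted p = 8.02e-09 in the same edgeR test). The levels after irradiation and VIP, 2154 to 2686 CPM, overlapped those of cells that had neither (2430 to 3400 CPM). Whether VIP acted differently in irradiated cells was tested as an interaction, and the difference for Olfm4 was −0.22 on the log2 scale (95% interval −0.41 to −0.02, adjusted p = 0.741 by edgeR). Of all 9976 genes, 0% passed in this test of the interaction by edgeR, 634 genes had an unadjusted p under 0.05, and DESeq2 called none of the 8 markers.

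Smoc2 followed the order of Olfm4 at a smaller scale. Its levels were 282, 322, 320 and 354 CPM without VIP or irradiation and 372, 375, 400 and 414 CPM with VIP alone. After irradiation they were 263, 281, 254 and 225 CPM without VIP and 296, 341, 303 and 326 CPM with VIP. In each of the 4 pairs of groups that differ by 1 treatment the values did not overlap. Without VIP the gap was small, with 281.3 CPM in irradiated mouse 2 and 281.6 CPM in non-irradiated mouse 1. The share of all genes that separate in this way was not counted. The fall with irradiation passed the test in cells without VIP (log2 fold change −0.31, SE 0.076, adjusted p = 0.0149) and in cells with VIP (−0.31, SE 0.073, adjusted p = 0.0078), each lower in 4 of 4 mice, by edgeR. The difference with VIP did not pass, at 0.29 without irradiation (95% interval 0.14 to 0.44, adjusted p = 0.0596) and 0.29 after it (95% interval 0.13 to 0.45, adjusted p = 0.160) in the same edgeR test, although it was positive in 4 of 4 mice both times. Without irradiation it passed with DESeq2's Wald test (adjusted p = 0.0355) and in an edgeR fit of these 8 samples alone (adjusted p = 0.0192). The fall in cells without VIP did not pass without mouse 3 or mouse 4 (edgeR adjusted p = 0.127 and 0.298) or in an edgeR fit of the 8 samples of both groups alone (adjusted p = 0.0542), and in VIP-treated cells it did not pass without mouse 3 (edgeR adjusted p = 0.0901).

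**Figure D2:**
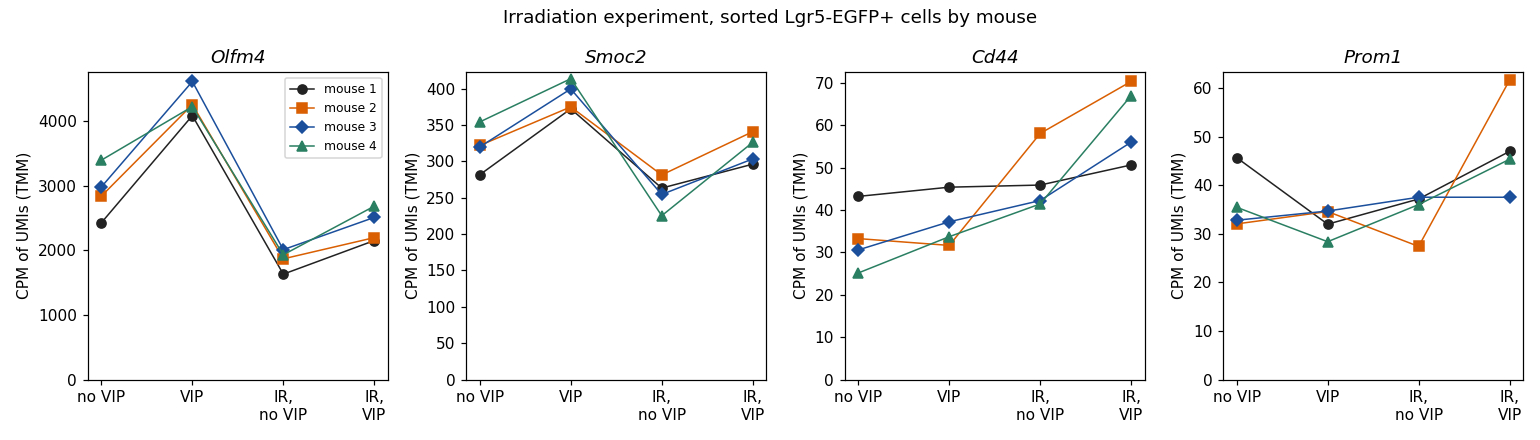
CPM of UMIs after TMM scaling (y axis, from 0) of Olfm4, Smoc2, Cd44 and Prom1 in the 4 groups of the irradiation experiment (x axis), with 1 line for each of the 4 mice. Olfm4 ran from 4090 to 4618 CPM with VIP alone down to 1633 to 2013 CPM after irradiation alone, while Cd44 was highest (50.7 to 70.4 CPM) after irradiation with VIP.

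Both surface glycoproteins moved the other way in VIP-treated cells. Cd44 was at 45.4, 31.7, 37.2 and 33.7 CPM with VIP alone and at 50.7, 70.4, 56.0 and 67.0 CPM with VIP after irradiation. The groups did not overlap, and Cd44 rose by 0.71 on the log2 scale (SE 0.15, higher in 4 of 4 mice, adjusted p = 0.00398 by edgeR). Prom1 rose by 0.53 (SE 0.16, higher in 4 of 4 mice, adjusted p = 0.0361 in the same edgeR test), from 32.01, 34.6, 34.7 and 28.4 CPM to 47.0, 61.7, 37.6 and 45.4 CPM. Without VIP, Cd44 was at 43.2, 33.3, 30.6 and 25.2 CPM before and 45.9, 58.1, 42.3 and 41.4 CPM after irradiation, with a log2 fold change of 0.51 that did not pass (95% interval 0.17 to 0.85, adjusted p = 0.0782 by edgeR). Leaving out mouse 1 brought this to 0.69 (edgeR adjusted p = 0.0131).

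Prom1 without VIP was at 45.7, 32.1, 32.8 and 35.5 CPM before and 37.2, 27.4, 37.6 and 36.0 CPM after irradiation. These groups overlapped (log2 fold change −0.11, 95% interval −0.45 to 0.23, edgeR adjusted p = 0.812). The interaction of VIP and irradiation was 0.64 for Prom1 on the log2 scale (95% interval 0.17 to 1.11, adjusted p = 0.687 by edgeR) and 0.20 for Cd44 (95% interval −0.27 to 0.67, adjusted p = 0.952 by edgeR). The rise of Prom1 in VIP-treated cells was the less stable call. Its edgeR adjusted p was 0.0840, 0.130 and 0.180 without mice 1, 2 and 4, and 0.117 with DESeq2, and that of Cd44 was 0.0549 without mouse 4.

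In all, 2 of 8 markers tested passed with irradiation in cells without VIP, where 4.46% of all genes passed, and 4 of 8 passed in VIP-treated cells, where 7.78% of all genes did. The median log2 difference over the 8 markers was −0.18 without VIP and −0.28 with VIP, against −0.0041 and 0.0015 over all genes. These comparisons, and the corresponding ones of VIP, share groups of cultures and are not independent of each other.

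The remaining markers had differences that did not pass the test in either irradiation comparison. Ascl2 was at 278, 243, 254 and 272 CPM in untreated cells and at 221, 214, 225 and 204 CPM after irradiation, groups that did not overlap, with a log2 difference of −0.28 (95% interval −0.48 to −0.08, adjusted p = 0.108 by edgeR). Rgmb differed by −0.26 (95% interval −0.49 to −0.03, adjusted p = 0.225 by edgeR) without VIP and by −0.33 (−0.56 to −0.11, adjusted p = 0.0586 by edgeR) with VIP, and without mouse 4 both Rgmb (−0.42) and Ascl2 (−0.40) passed in VIP-treated cells, with edgeR adjusted p-values of 0.0289 and 0.0187. Sox9 stayed within 327 to 449 CPM in all 16 cultures, and its irradiation differences were 0.09 (95% interval −0.06 to 0.24) and −0.10 (−0.24 to 0.05).

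Lgr5 itself was counted with 19 to 51 UMIs per culture in the irradiation experiment, which limits its precision. It was at 27.8, 25.4, 12.2 and 14.8 CPM without VIP or irradiation, 38.0, 26.5, 30.3 and 20.1 CPM with VIP alone, 19.8, 25.3, 20.7 and 17.1 CPM after irradiation, and 25.6, 30.0, 16.8 and 21.1 CPM after irradiation with VIP. All 4 groups overlapped. The irradiation difference without VIP was 0.04 on the log2 scale (95% interval −0.39 to 0.48). With VIP alone, Lgr5 was higher in 4 of 4 mice, by 0.54 (SE 0.20, 95% interval 0.13 to 0.94), and did not pass (adjusted p = 0.233 by edgeR).

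**Figure D3:**
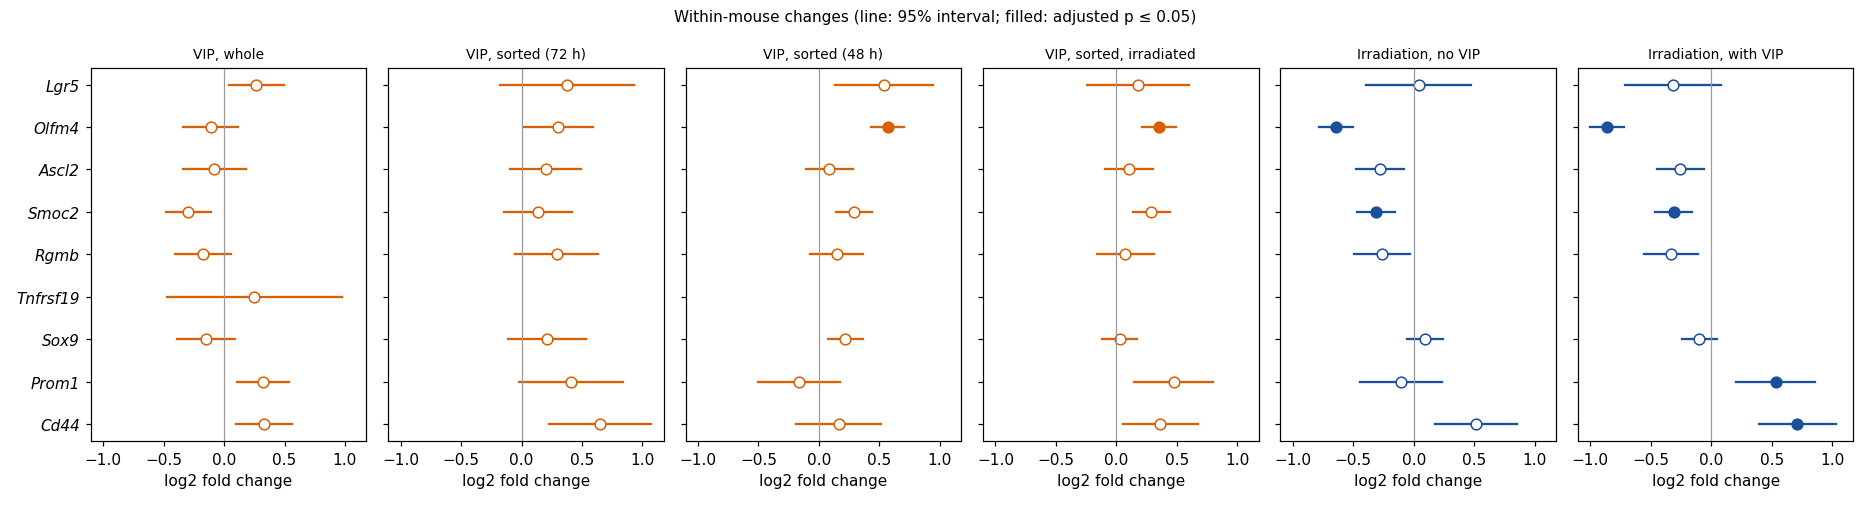
Log2 fold changes (x axis) of the markers tested (y axis) for VIP in the 3 experiments (orange) and for irradiation (blue), each within mice. Points are edgeR estimates, lines are 95% intervals and filled points have an adjusted p of 0.05 or less. Olfm4 is filled in 4 of the 6 panels, at 0.57 and 0.35 with VIP and −0.64 and −0.86 with irradiation.

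In sorted cells treated for 72 h without an irradiation arm, none of the 8 markers tested passed by edgeR, where 0.0885% of all genes did (6 of 6778) and 373 genes had an unadjusted p under 0.05. DESeq2 also called none of the markers. All 8 estimates were positive, with a median of 0.30 on the log2 scale against −0.0015 over all genes. Olfm4 was at 5081, 3877, 5646 and 3827 CPM without VIP and at 6386, 5042, 6122 and 4950 CPM with VIP, higher in 4 of 4 mice with overlapping groups (log2 difference 0.30, 95% interval 0.01 to 0.59, adjusted p = 0.884 by edgeR). Cd44 had the greatest difference, from 69.9, 80.7, 55.6 and 39.7 CPM to 103.9, 85.7, 87.5 and 110.2 CPM. Its groups did not overlap, a separation whose share over all genes was not counted. The log2 difference of 0.65 (95% interval 0.23 to 1.07) had an adjusted p = 0.624 by edgeR and did not pass. Lgr5 was at 52.5, 42.2, 15.9 and 41.5 CPM without VIP and 44.5, 40.9, 58.9 and 57.6 CPM with it, higher in 2 of 4 mice.

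In whole organoids none of the 9 markers passed, where 4.82% of all genes did (614 of 12727, with 2090 genes at an unadjusted p under 0.05). DESeq2 called none of the 9 as well. Mouse 4 has no untreated culture and adds nothing to these paired fold changes. Smoc2 was at 234, 192 and 319 CPM untreated and at 200, 155 and 249 CPM with VIP in the same 3 mice, lower in 3 of 3, with a log2 difference of −0.29 (95% interval −0.48 to −0.11, adjusted p = 0.0782 by edgeR). Cd44 was at 37.5, 42.2 and 36.6 CPM untreated and 49.4, 48.3 and 47.97 CPM with VIP (log2 difference 0.33, 95% interval 0.10 to 0.56, adjusted p = 0.117 by edgeR). Prom1 was at 75.5, 79.7 and 51.3 CPM untreated and 87.0, 98.0 and 70.8 CPM with VIP (log2 difference 0.32, 95% interval 0.10 to 0.54, adjusted p = 0.101 by edgeR).

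Lgr5 in whole organoids went from 92.7, 79.5 and 41.6 CPM to 106.6, 86.5 and 59.0 CPM in the same mice, higher in 3 of 3 (log2 difference 0.27, 95% interval 0.04 to 0.50, adjusted p = 0.220 by edgeR). Olfm4 showed no common direction, with 1486, 1224 and 3423 CPM untreated and 1727, 1062 and 2679 CPM with VIP. Mouse 3 held the most Olfm4 and the least Lgr5 in both cultures. Scaled by library size alone, Lgr5 in VIP-treated mouse 3 was at 43.3 CPM in the first library and 95.2 CPM in the second. Its level in untreated mouse 3 was 42.4 CPM on the same scale. Over 11 alternative fits the Lgr5 difference was 0.089 to 0.34 on the log2 scale and did not pass. Without the second library of VIP-treated mouse 3, which held 1822 CPM of Olfm4 against 3540 CPM in its sister library, the difference of Olfm4 was 0.0013. In that fit, Smoc2 passed as lower (−0.27, edgeR adjusted p = 0.0252) and Prom1 (0.32, edgeR adjusted p = 0.0348) and Cd44 (0.41, edgeR adjusted p = 0.0286) as higher, so that 3 of the 9 markers passed together with 1261 of all genes.

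The effect of VIP in sorted cells minus that in whole organoids was tested for 8 markers in 1 model of both 72 h experiments. None passed by edgeR, where 0.147% of all genes did and 636 genes had an unadjusted p under 0.05, and none passed by DESeq2. The estimates nearest to the threshold were those of Smoc2, 0.43 on the log2 scale (95% interval 0.10 to 0.77, adjusted p = 0.598 by edgeR), Rgmb, 0.47 (0.05 to 0.88, adjusted p = 0.741 by edgeR), and Olfm4, 0.41 (0.02 to 0.80, adjusted p = 0.754 by edgeR).

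The level of the markers in sorted cells was compared with that in whole organoids on untreated cultures. The mice differ between these experiments, so cultures could not be paired, and strain, sort, table and experiment cannot be told apart from the compartment. In the 72 h experiment 3 of 8 markers passed, where 32.5% of all genes did, and in the irradiation experiment 4 of 8 passed, where 58.1% of all genes did. These shares of the markers are near those of all genes.

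Ascl2 was higher in both sorted sets. It was at 141, 148 and 158 CPM in whole organoids, 166, 200, 302 and 258 CPM in the 72 h set, and 243 to 278 CPM in the irradiation set. The log2 fold changes were 0.67 (SE 0.20, adjusted p = 0.0180) and 0.81 (SE 0.10, adjusted p = 1.21e-04) by edgeR. In the 72 h set Ascl2 lost its call in 6 of 13 alternative fits, with estimates of 0.36 to 0.79 over all 13. In the irradiation set it kept its call in all 13. Olfm4 rose in the 72 h set, by 1.21 (SE 0.31, adjusted p = 0.00778 by edgeR), and in the irradiation set its difference was 0.51 (95% interval −0.12 to 1.14, adjusted p = 0.142 by edgeR). Both estimates are measured against whole organoids whose mouse 3 held 3423 CPM, and without that culture the difference was 1.81 in the 72 h set (edgeR adjusted p = 6.05e-06) and 1.11 in the irradiation set (edgeR adjusted p = 3.39e-07). Smoc2 (0.59) and Rgmb (0.42) then passed as well in the irradiation set. Leaving out any other culture gave 0.93 to 1.27 for Olfm4 in the 72 h set and 0.24 to 0.58 in the irradiation set.

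Lgr5 counts were lower in the sorted cells. They were 41.6 to 92.7 CPM in whole organoids, 15.9 to 52.5 CPM in the 72 h set and 12.2 to 27.8 CPM in the irradiation set. The log2 difference was −0.84 in the 72 h set (95% interval −1.55 to −0.14, adjusted p = 0.0633) and −1.84 in the irradiation set (SE 0.32, adjusted p = 7.85e-04) by edgeR. In the 72 h set it was −1.10 and passed without mouse 3 of the whole organoids (edgeR adjusted p = 0.00139). The sorted cells carry an Lgr5 allele disrupted by the reporter, and its part in this difference was not tested.

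The other markers differed between the 2 sorted sets. Cd44 was higher than in whole organoids in the 72 h set (log2 fold change 0.73, SE 0.25, adjusted p = 0.0341 by edgeR) and at −0.23 in the irradiation set (95% interval −0.64 to 0.18). Its call in the 72 h set was lost in 6 of 13 alternative fits, with estimates of 0.43 to 0.87 over all 13. Sox9 was higher in the irradiation set (0.69, SE 0.18, adjusted p = 0.00805 by edgeR) and at −0.35 in the 72 h set (95% interval −0.89 to 0.18). Prom1 was lower in the irradiation set (−0.93, SE 0.19, adjusted p = 0.00224 by edgeR) and at 0.03 in the 72 h set (95% interval −0.53 to 0.60). Enteroendocrine markers moved with the irradiation set, where 8 of 9 were higher, led by Gcg, Cck and Gip, and summed to 3010 to 4107 CPM against 866 to 928 CPM in whole organoids. So did 4 of 4 tuft cell markers tested, with sums of 61.1 to 95.7 CPM against 14.3 to 17.6 CPM. Of all genes, 58.1% passed in this comparison. The part of these cell types in the levels of Sox9 and Prom1 was not tested. Under scaling by library size alone the median of all genes in the 72 h set shifted by −0.30 on the log2 scale, and Ascl2 (0.36) and Cd44 (0.43) no longer passed there, with edgeR adjusted p-values of 0.104 and 0.204.

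**Figure D4:**
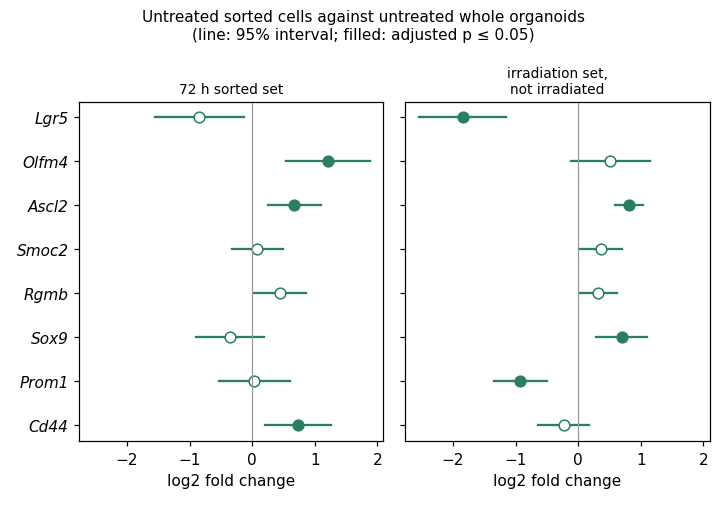
Log2 fold changes (x axis) of the 8 markers tested (y axis) in untreated sorted cells against untreated whole organoids, for the 72 h set and for the non-irradiated cells of the irradiation set. Points are edgeR estimates, lines are 95% intervals and filled points have an adjusted p of 0.05 or less. Ascl2 is filled in both panels (0.67 and 0.81), and Lgr5 lies lowest (−0.84 and −1.84).

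Tnfrsf19 was the scarcest marker, with 1 to 24 UMIs per culture. Its level was 1.73 to 3.52 CPM in the 7 cultures of whole organoids and 1.77 to 13.99 CPM in the 24 cultures of sorted cells. It passed the filter on low counts only for VIP in whole organoids, with a log2 difference of 0.25 (95% interval −0.48 to 0.98), and differences elsewhere were not detectable at this depth.

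Among the markers, Olfm4, Smoc2, Rgmb and Ascl2 varied together over the 16 cultures of the irradiation experiment. On log2 CPM with the mean of each mouse removed, Pearson's r with Olfm4 was 0.909 for Smoc2, 0.816 for Rgmb and 0.795 for Ascl2. It was 0.483 for Lgr5 and 0.438 for Sox9, −0.312 for Prom1 and −0.507 for Cd44. Prom1 and Cd44 correlated with each other at 0.511. These values describe cultures that share treatments, mice and sequencing depth.

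**Figure D5:**
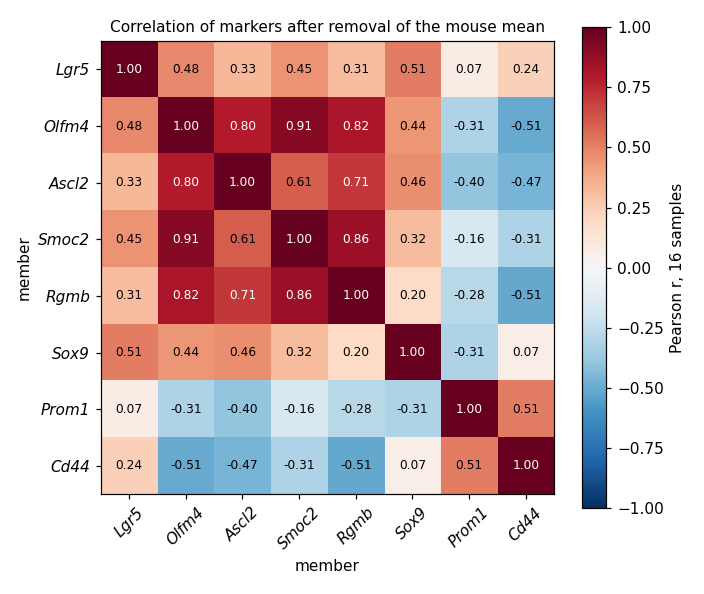
Pearson correlations between the 8 markers (both axes) over the 16 cultures of the irradiation experiment, on log2 CPM after the mean of each mouse was removed, with red for positive and blue for negative values. Olfm4, Ascl2, Smoc2 and Rgmb form a block of positive values, up to 0.909 for Olfm4 with Smoc2, and Cd44 is negative to them.

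The genes most like Olfm4 in the same cultures, among 6024 genes with a mean of at least 20 CPM, were Gm9794 (r = 0.971), Cox8a (0.965), Isoc2b (0.951), Gm10076 (0.944) and Rplp2 (0.941). Gm9794 is annotated as a processed pseudogene, so its count may share reads with its parent gene, and Gm10076 as a lincRNA. Cox8a encodes a subunit of cytochrome c oxidase and Rplp2 a ribosomal protein. Those most like Lgr5 were Lcp1 (0.835), Mbnl2 (0.815), Snrpn (0.784), Gne (0.777) and Nav2 (0.759), where Lcp1 encodes an actin-bundling protein and Mbnl2 a splicing regulator. By this measure Smoc2 ranked at place 29 of the genes like Olfm4, and Sox9, the marker closest to Lgr5, at place 196.

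The sequence before the start of transcription is shown for Olfm4, the marker with the most calls, and Cd44, which differed in the opposite direction after irradiation. Both are RefSeq sequences on GRCm38.p6, 5′ to 3′ on the strand of the gene and ending at or before the start site. For Olfm4 the bases inside an annotated exon were left out. The start used for Olfm4 is that of RefSeq, and its window lies within the longer gene of GENCODE M21, which begins at 79984081. Capitals mark an E-box (CANNTG), the class of motif bound by basic helix-loop-helix factors such as Ascl2.
Olfm4, chr14:80000052-80000250, plus strand: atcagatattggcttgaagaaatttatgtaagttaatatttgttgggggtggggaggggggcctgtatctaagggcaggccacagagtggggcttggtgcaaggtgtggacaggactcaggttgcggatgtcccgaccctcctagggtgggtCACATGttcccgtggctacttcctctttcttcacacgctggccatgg
Cd44, chr2:102901666-102901915, minus strand: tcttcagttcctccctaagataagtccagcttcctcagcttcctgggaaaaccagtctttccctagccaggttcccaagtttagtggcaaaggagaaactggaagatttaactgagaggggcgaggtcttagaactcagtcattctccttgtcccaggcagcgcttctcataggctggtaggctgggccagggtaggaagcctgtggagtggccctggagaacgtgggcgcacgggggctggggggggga

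The table of promoters held 6 of the 9 markers (Olfm4, Ascl2, Rgmb, Tnfrsf19, Prom1 and Cd44) in 10 windows. In the 250 bases before the start, on both strands, the core of TCF/LEF sites (CTTTGA) was found once, in a window of Tnfrsf19 at 201 bases before the start. The RBPJ core (TTCCCAC) and the cAMP response element half-site (TGACG) were found in no window of a marker. An E-box lay 98 bases before the RefSeq start of Olfm4, which is inside the GENCODE gene. E-boxes lay 98 and 249 bases before the start of Ascl2, and none lay in the window of Cd44. E-boxes also lay in windows of Rgmb (170 and 236 bases before the start), Prom1 (222) and Tnfrsf19 (8 to 247). Other windows of Rgmb and Prom1 held none. Of 32841 promoter windows in the table, 13.8% held the TCF/LEF core, 5.41% the RBPJ core, 17.8% the half-site and 66.2% an E-box. These matches describe the letters only. On GRCm38 (GENCODE M21), Lgr5 lies on chromosome 10 from 115450311 to 115587780 (minus strand), Olfm4 on chromosome 14 from 79984081 to 80023139 (plus strand), Smoc2 on chromosome 17 from 14279506 to 14404790 (plus strand), Prom1 on chromosome 5 from 43993620 to 44102032 (minus strand) and Cd44 on chromosome 2 from 102811141 to 102901665 (minus strand).

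Of 21 other genes of the stem cell signature, such as Axin2, Lrig1 and Myb, 3 passed with VIP in whole organoids, where 4.82% of all genes did: 1 was higher (Igfbp4, 0.44 on the log2 scale) and 2 were lower (Nrn1, −0.56, and Aqp4, −0.46) among 20 tested. None of the 17 or 19 tested passed by edgeR with VIP in sorted cells. With irradiation, Clca3b (−0.84) and Aqp4 (−0.45) were lower among 19 tested without VIP, and Aqp4 (−0.72), Clca3b (−0.55) and Cdca7 (−0.36) with VIP, beside 4.46% and 7.78% of all genes. Clca3b has close paralogs, so its count is uncertain. The median over the list was 0.06 and 0.0035 in these irradiation comparisons. Against whole organoids, 4 of 18 were higher in the 72 h set, led by Ephb3, Kcne3 and Igfbp4, with Cdk6 lower, where 32.5% of all genes passed. In the irradiation set 4 of 19 were higher, led by Sp5, Kcne3 and Igfbp4, and 10 were lower, led by Myb, Cdk6 and Slc12a2, where 58.1% of all genes passed.

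Genes of position +4 and revival stem cells, a class described in regenerating epithelium, gave more calls than the 9 markers in whole organoids. There, 6 of 9 rose with VIP, led by Anxa1 (2.54 on the log2 scale), Ly6a (2.40) and Clu (1.93), where 4.82% of all genes passed. None of the 2 or 6 tested passed by edgeR with VIP in sorted cells. With irradiation 4 of 6 rose without VIP, led by Areg (1.29), Anxa1 (0.91) and Ly6a (1.34), where 4.46% of all genes passed. In VIP-treated cells 5 of 6 rose with irradiation, led by Anxa1 (1.37), Areg (1.32) and Krt19 (0.38), where 7.78% of all genes passed.

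The p53 targets show the radiation response of the cells in which the markers were measured. Of 10, 9 rose with irradiation both without and with VIP, where 4.46% and 7.78% of all genes passed. They were led by Cdkn1a (1.15 and 1.75 on the log2 scale) and Phlda3 (1.34 and 1.83). The list summed to 1601 to 1940 CPM in irradiated against 806 to 1022 CPM in non-irradiated cells without VIP. Among 10 genes of cycling cells, Mcm6 (−0.37) passed as lower in VIP-treated cells and none passed by edgeR in cells without VIP. With VIP alone, Mcm3 (0.50) was higher and Cdkn1a (−0.57) lower.

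Markers of differentiated cells moved with irradiation beside Olfm4 and Smoc2. Of all genes, 4.46% passed with irradiation in cells without VIP and 7.78% in cells with VIP. All 10 Paneth cell markers passed as higher without and with VIP, and their sum was 15263 to 29202 CPM in irradiated against 10314 to 15426 CPM in non-irradiated cells without VIP. Enteroendocrine markers passed as higher in 4 of 9 without VIP (Chgb, Chga and Tph1 first) and 9 of 9 with VIP, and goblet cell markers in 4 and 2 of 7. Of 11 enterocyte markers 5 and 2 were higher, led by Fabp1 and Krt20, and of 5 tuft cell markers none without VIP and 1 with VIP. Vim, the single non-epithelial marker tested, was higher in both (1.31 and 1.004), the whole non-epithelial list summing to 31.96 to 73.1 CPM in irradiated against 16.9 to 24.1 CPM in non-irradiated cells without VIP. The part of these cell types in the levels of the stem cell markers was not tested.

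With VIP in non-irradiated sorted cells, none of the 10 Paneth and 9 enteroendocrine markers passed by edgeR, and Fabp1 (−0.95) and Fabp2 (−0.41), both of enterocytes, were lower. All 10 Paneth cell estimates were negative, with a median of −0.42. With VIP after irradiation all 10 were negative too, with a median of −0.53, and 0 passed by edgeR. Of 11 enterocyte estimates for VIP, 9 were negative without irradiation and 10 after it. After irradiation Fabp1 (−1.37) and the goblet cell gene Fcgbp (−1.05) were lower with VIP. In whole organoids VIP was followed by higher goblet cell markers, 6 of 7 tested, where 4.82% of all genes passed. They were led by Clca1 (2.08), Zg16 (1.67) and Agr2 (0.73), and the list summed to 3486 to 3844 CPM against 2045 to 2457 CPM untreated.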

How the data were processed

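The authors deposited UMI counts as whole numbers with no scaling, made from 3′ libraries with the Drop-seq pipeline 1.0 on GRCm38 with GENCODE M25. The tables held 0 columns without a sample. The 37 libraries were summed over technical replicates to 31 cultures. Depths are given with the results, and UMIs limit amplification bias but not the counting error of scarce genes.

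Counts were tested in R 4.3.3 with edgeR 4.0.16: TMM factors, edgeR's filter on low counts by group, quasi-likelihood tests blocked by mouse, and Benjamini-Hochberg adjustment over all genes tested, with a threshold of 0.05. The standard error is the log2 fold change divided by the square root of the F statistic. The model follows that of the study, in which same-numbered cultures come from 1 mouse. As a check, deviations from the group mean correlated across genes at 0.27 to 0.63 within a mouse in whole organoids, 0.03 to 0.21 in the 72 h sorted cells and 0.01 to 0.16 in the irradiation experiment, where the numbers alone therefore carry little of the spread. Between different mice the correlations were −0.54 to 0.33, −0.14 to 0.15 and −0.1 to 0.04. In whole organoids and the 72 h sorted cells these ranges overlapped those within a mouse. Sorted and whole cultures were compared without a block. In the irradiation experiment all 16 cultures entered 1 fit. Sums of a list are sums of CPM.

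All 9 markers are named. Other lists are given by counts, with up to 3 genes of the smallest p per direction, and the 5 genes most correlated with Lgr5 and with Olfm4. The markers, lists and tests were chosen with earlier results of these data known. The alternatives were DESeq2 1.42.0, RLE factors, library size alone, no filter, no block, leaving out each culture or mouse, the first technical replicate libraries only, leaving out the library that stood apart, leaving out mitochondrially encoded genes, and fits of 2 groups only. The test script was tested on simulated data. Gene positions are those of GENCODE M21, which held 96.8% of the symbols, and promoter windows are from RefSeq on GRCm38.p6.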

Additional observations from a re-analysis of the deposited data

Results flagged for a closer look

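Among 63 groups of cultures examined for a value that stands apart from the rest of its group, where chance gives about 1 in 20, 6 held one. Ascl2 was at 106.2 CPM in VIP-treated whole organoids of mouse 2, with the other 3 cultures at 160.8 to 168.4 CPM. It was at 176.3 CPM in the irradiated, VIP-treated cells of mouse 2, with the others at 251.2 to 252.7 CPM. Sox9 was at 257.0 CPM in untreated sorted cells of mouse 1 of the 72 h experiment, with the others at 139.1 to 155.2 CPM. In untreated, non-irradiated cells of the irradiation experiment it was at 326.7 CPM in mouse 1, with the others at 380.5 to 383.2 CPM. Prom1 was at 27.4 CPM in irradiated cells of mouse 2 without VIP, with the others at 36.0 to 37.6 CPM. Cd44 was at 40.9 CPM in VIP-treated whole organoids of mouse 4, with the others at 47.97 to 49.4 CPM.

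Smoc2 differed in direction between whole organoids and sorted cells of the irradiation experiment. With VIP, it was lower in every mouse in whole organoids (log2 difference −0.29) and higher in every mouse in sorted cells of the irradiation experiment, by 0.289 without and 0.290 with irradiation. In sorted cells treated for 72 h it was 0.14 (95% interval −0.14 to 0.42), higher in 3 of 4 mice. None of these differences passed in the main edgeR fits. The difference between whole organoids and the irradiation experiment was not tested.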

How the results depend on the processing

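The 9 markers gave 81 tested results and 890 alternatives to them, of which 821 kept their direction and their side of the threshold, 25 changed direction, 24 no longer passed and 20 newly passed. Every change of direction was in a difference that had not passed. Values with a culture left out are given as the lowest and highest. In whole organoids with VIP, Ascl2 was at 0.0070 with no replicate block, 0.032 with the first technical replicate libraries only and −0.22 to 0.12 without a mouse, Sox9 at −0.28 to 0.023 without a mouse, and Olfm4 at −0.28 to 0.011 without a mouse, 0.19 with the first libraries only and 0.0013 without the library that stood apart. Without a mouse, Sox9 was at −0.013 to 0.067 and Rgmb at −0.055 to 0.15 with VIP after irradiation, Lgr5 at −0.13 to 0.28 with irradiation alone, and, for the interaction of VIP and irradiation, Rgmb at −0.33 to 0.058, Smoc2 at −0.089 to 0.077 and Ascl2 at −0.17 to 0.15. In the 72 h set against whole organoids, Smoc2 was at −0.21 with library size only, −0.12 with no filter and −0.092 to 0.31 without a culture, and Prom1 at −0.27, −0.16 and −0.22 to 0.17, with −0.029 for the first libraries only. For the effect of VIP in sorted minus whole, Lgr5 was at −0.21 to 0.35 and Prom1 at −0.15 to 0.32 without a mouse.

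The number of markers that passed was 0 to 1 when a mouse was left out and 3 without the library that stood apart for VIP in whole organoids (main 0). It was 2 with DESeq2 and 2 in a fit of 2 groups for VIP in sorted cells of the irradiation experiment (main 1), 0 to 1 when a mouse was left out for VIP after irradiation (main 1), and 1 in a fit of 2 groups and 1 to 3 when a mouse was left out for irradiation alone (main 2). It was 1 to 5 in the 72 h set (main 3) and 4 to 7 in the irradiation set (main 4) against whole organoids when a culture was left out, 5 and 7 without whole mouse 3. In the paired comparisons, leaving out the replicate block took the number for VIP after irradiation to 0 and changed no other call of a marker. The cause of these changes was not tested.

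Over all genes, the counts moved further. They were 614 for VIP in whole organoids (300 with DESeq2, 979 with no filter, 99 with no replicate block, 363 to 1668 without a mouse, 1261 without the library that stood apart), 6 in the 72 h sorted cells (1 to 17), 74 in sorted cells of the irradiation experiment (32 to 184) and 22 after irradiation (5 to 110). For irradiation they were 445 (176 to 643) and 776 (426 with mouse 4 left out, 489 with DESeq2), for the 72 h set 2858 (4608 with no filter), and for the interactions 0 (0 to 34) and 15 (0 to 55).

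Depth limits Lgr5 and Tnfrsf19 most, and mice, tables and strains differ between the compartments.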
